A study of Mus musculus with 10 samples.

Results

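Genes that mark or equip T cells were followed across 10 arrays of mouse spleen RNA: the kinase genes Lck and Fyn, the adhesion receptor gene Cd2, the CD40 ligand gene Cd40lg and the chromatin organiser gene Satb1. They were taken by the gene name printed beside each spot, and the 5 genes were 5 of the 597 named genes on the membrane, each spotted in duplicate. The study compared splenocytes, the mixed cells of the spleen, from FVB mice killed at 6 weeks of age: 7 samples carried a transgene named CD22DE12 and 3 samples were wild type. Total RNA of each sample was copied into radioactive cDNA and hybridised to its own nylon membrane. CD22 is a surface co-receptor that dampens B cell receptor signalling, and the name CD22DE12 refers to a version missing an exon, described in B-precursor leukaemia. The sources used here give neither the promoter nor the species of the transgene, nor the number of founder lines. Each transgenic title carries an identifier of its own and the wild-type titles are numbered, but no label says whether these stand for separate mice. The p-values therefore cover only the spread between these samples, which may be technical.

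When a T cell receptor meets its antigen, Lck, a Src family tyrosine kinase held at the tails of CD4 and CD8, phosphorylates the CD3 chains and starts the signal. Fyn is a second Src family kinase of T cells, also found in many other cells. CD2 is an adhesion receptor that binds CD48 in the mouse and is carried by mouse T, NK and B cells. CD40 ligand appears on activated helper T cells and engages CD40 on B cells and antigen-presenting cells. SATB1 binds AT-rich DNA, folds chromatin and is abundant in thymocytes and T cells.

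Lck is known for transcription from separate distal and proximal promoters, the proximal used mainly in the thymus and the distal also in peripheral T cells. RefSeq on GRCm38.p6 listed 2 starts for Lck, 1 for Fyn and 5 for Satb1, and 3 of the 5 genes had an entry; Cd2 and Cd40lg were not matched. Among the 5 genes, Satb1 had the smallest p of the group comparison and Lck turned on a single array. The windows of both Lck starts and of the outermost Satb1 start are therefore shown. Each runs 5′ to 3′ on the gene's strand, from 250 bases before to 50 bases after the start. Capitals mark the word AGGAAG, or CTTCCT where it lies on the opposite strand, a word that holds the GGAA core bound by ETS family factors.
Lck, first start, chr4:129573592-129573891, minus strand: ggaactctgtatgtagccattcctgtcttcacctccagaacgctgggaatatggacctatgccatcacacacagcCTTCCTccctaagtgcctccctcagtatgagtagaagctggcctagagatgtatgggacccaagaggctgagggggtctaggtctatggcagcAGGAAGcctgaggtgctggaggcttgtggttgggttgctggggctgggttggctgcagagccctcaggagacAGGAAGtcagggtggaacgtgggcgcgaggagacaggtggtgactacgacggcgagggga
Lck, second start, chr4:129558323-129558622, minus strand: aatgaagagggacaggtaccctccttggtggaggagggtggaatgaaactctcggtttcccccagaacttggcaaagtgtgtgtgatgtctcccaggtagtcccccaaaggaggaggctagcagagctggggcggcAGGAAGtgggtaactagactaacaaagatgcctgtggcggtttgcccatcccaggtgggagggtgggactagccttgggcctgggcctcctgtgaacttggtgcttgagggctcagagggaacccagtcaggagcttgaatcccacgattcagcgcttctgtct
Satb1, outermost start, chr17:51833241-51833540, minus strand: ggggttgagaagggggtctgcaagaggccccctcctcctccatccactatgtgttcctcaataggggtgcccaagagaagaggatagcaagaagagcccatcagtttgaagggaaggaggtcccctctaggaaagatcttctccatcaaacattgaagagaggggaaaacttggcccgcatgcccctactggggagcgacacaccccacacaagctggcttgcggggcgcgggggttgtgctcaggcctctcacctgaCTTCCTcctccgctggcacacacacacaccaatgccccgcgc
The first Lck window held 3 matches, the second 1 and the Satb1 window shown 1. The word stood in 4 of the 8 windows of these genes and in 35.4% of 32851 windows of all listed starts. The matches did not overlap, and a match is no evidence of binding. The spots give 1 signal per gene, so transcripts from different starts cannot be told apart here.

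Arrays differed in depth. A gene was taken as above background where 1 or both of its 2 spots carried the code 0, and 463 to 550 of the 597 genes met this per array. Header times, read as clock times without a date, set transgenic replicates 6 and 7 more than 1 hour apart from the other 8 arrays. Those 8 hold all 3 wild-type arrays and are called the first sitting, and replicates 6 and 7 the second. The median gene reached 4.45 and 4.06 grey levels over its local background on the 2 arrays of the second sitting and 13.8 to 18.7 on the rest. Results are therefore also given for the first sitting alone, normalized anew (5 transgenic, 3 wild-type arrays). Cd22, the gene after which the transgene is named, was lower in transgenic arrays, at -0.24 on the log2 scale with a standard error of 0.087. It did not pass over all genes (limma adjusted p = 0.562). Whether its spots also read the transgene is not known, since the species of the transgene is not given. Of the T cell markers written down, 4 of 14 were on the membrane (Cd3d, Cd4, Cd27 and Il7r), and all 4 stood above background on all 10 arrays.

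**Figure D1:**
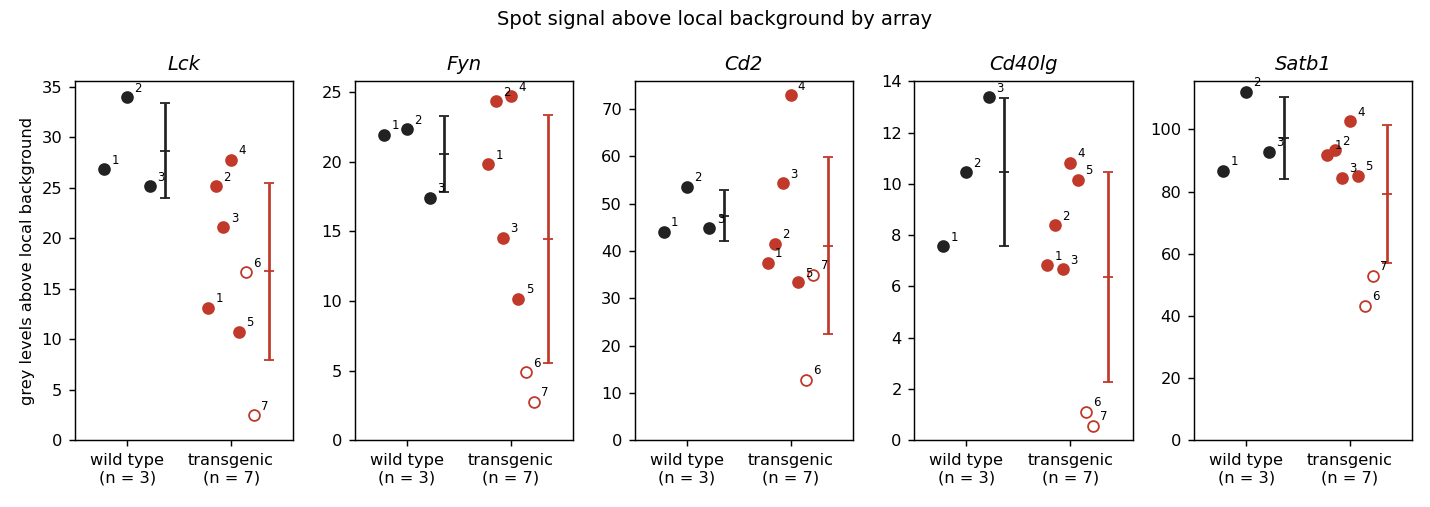
Spot signal in grey levels above local background, mean of the duplicate spots, for each gene and array; numbers are replicates, open circles are the second sitting, and the bar beside each group is its mean and SD. Transgenic replicates 6 and 7 lie low for Cd40lg, at 1.12 and 0.58, and for Satb1, at 43.3 and 52.9.

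All 5 genes were measurable in wild-type spleen. Satb1 gave 86.7, 112.1 and 92.9 grey levels above local background on wild-type replicates 1, 2 and 3, a mean of 97.2 ± 13.2 (SD, n = 3). Cd2 gave 44.0, 53.6 and 44.8 grey levels, a mean of 47.5 ± 5.32 (SD, n = 3). Lck gave 26.8, 34.0 and 25.2 grey levels, a mean of 28.7 ± 4.69 (SD, n = 3). In these 3 genes replicate 2 was the brightest array, and the duplicate spots of every gene carried the code 0 on all 3 arrays. Fyn gave 21.9, 22.3 and 17.4 grey levels, a mean of 20.6 ± 2.73 (SD, n = 3). Cd40lg, the dimmest of these signals, gave 7.57, 10.5 and 13.4 grey levels, a mean of 10.5 ± 2.90 (SD, n = 3). The spots carry different cDNA fragments, so these levels are not compared between genes.

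In transgenic spleen the mean of all 7 arrays was below the wild-type mean for each gene, with a wider spread, and both rested in part on the 2 dim arrays. Satb1 ran from 43.3 on replicate 6 to 102.6 on replicate 4, with a median of 85.1 grey levels. Cd2 ran from 12.8 on replicate 6 to 72.9 on replicate 4, with a median of 37.5. Lck ran from 2.49 on replicate 7 to 27.8 on replicate 4, with a median of 16.6. Replicate 4 was the brightest transgenic array for all 5 genes, and the lowest was always replicate 6 or 7, the dim arrays of the second sitting. Fyn ran from 2.79 on replicate 7 to 24.7 on replicate 4, with a median of 14.5. Cd40lg ran from 0.58 on replicate 7 to 10.8 on replicate 4, with a median of 6.84 grey levels. Cd40lg was above background on 8 of the 10 arrays and Lck on 9, while Fyn, Cd2 and Satb1 were above background on all 10. Cd40lg had the code 0 on 6 of 6 wild-type spots but on 7 of 14 transgenic spots, and on none of the 4 spots of replicates 6 and 7. Grey levels carry the brightness of the whole array: across the 10 arrays they followed the array's median signal, with Pearson r from 0.69 for Lck to 0.94 for Satb1, a description over arrays that share groups and sittings. Over the 5 transgenic arrays of the first sitting, Cd2 averaged 47.9 ± 16.0, no lower than in wild type, Satb1 91.5 ± 7.41, Lck 19.6 ± 7.41, Fyn 18.7 ± 6.30 and Cd40lg 8.58 ± 1.89 grey levels (SD, n = 5). The SDs of Satb1 and Cd40lg were then smaller than in wild type. The groups were compared on normalized values, which may still carry some of that brightness. Their Pearson r with the array's median signal was 0.58 for Fyn, 0.47 for Satb1, 0.43 for Cd40lg, 0.12 for Cd2 and -0.04 for Lck. The permutation p of these r was 0.0739 for Fyn and 0.175 to 0.925 for the other genes. A limma fit over all 10 arrays with sitting as a further term gave log2 differences, transgenic minus wild type. The second sitting holds only transgenic arrays, so replicates 6 and 7 do not enter these differences. They compare the groups within the first sitting, in the normalization of all 10 arrays, and are no check apart from the first-sitting values. The differences with the sitting term were -0.15 for Satb1, -0.22 for Lck, -0.15 for Cd2, -0.07 for Fyn and -0.04 for Cd40lg. The limma unadjusted p was 0.0182 for Satb1 (adjusted p = 0.495) and 0.0829 to 0.291 for the other genes. Beyond these and the first-sitting values, the part of array brightness in the group differences was not tested.

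The comparison asked whether the transgene goes with another level of these genes in the spleen. Values were normalized log2 signals with 50 grey levels added, which shrinks differences. A doubling of the wild-type signal reads, before normalization, as 0.73 for Satb1, 0.57 for Cd2, 0.45 for Lck, 0.37 for Fyn and 0.23 for Cd40lg. All 5 genes had a lower mean in the transgenic arrays, with a median difference of -0.14 against 0.0019 over all 597 genes, of which 48.2% were lower. Satb1 alone lay below the wild-type mean in all 7 transgenic arrays, as did 7.87% of all genes. None of the 5 passed: limma with Benjamini-Hochberg adjustment over all genes called 0 of the 597 (0%), with a smallest adjusted p of 0.503. In whole spleen RNA, fewer cells of a type and less RNA per cell cannot be told apart. Beside this, all 5 B cell markers on the membrane, of 13 written down and with Cd22 and Cd40 among them, were also lower, with a median of -0.13 and 3 of them (Pou2af1, Cd22 and Cd40) at an unadjusted p under 0.05, which 4.86% of all genes reached as lower. Their summed signal ran from 267.1 to 305.2 grey levels in wild-type and from 128.2 to 303.3 in transgenic arrays, and none was at 0. The part of the B cell markers in the result was not tested.

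**Figure D2:**
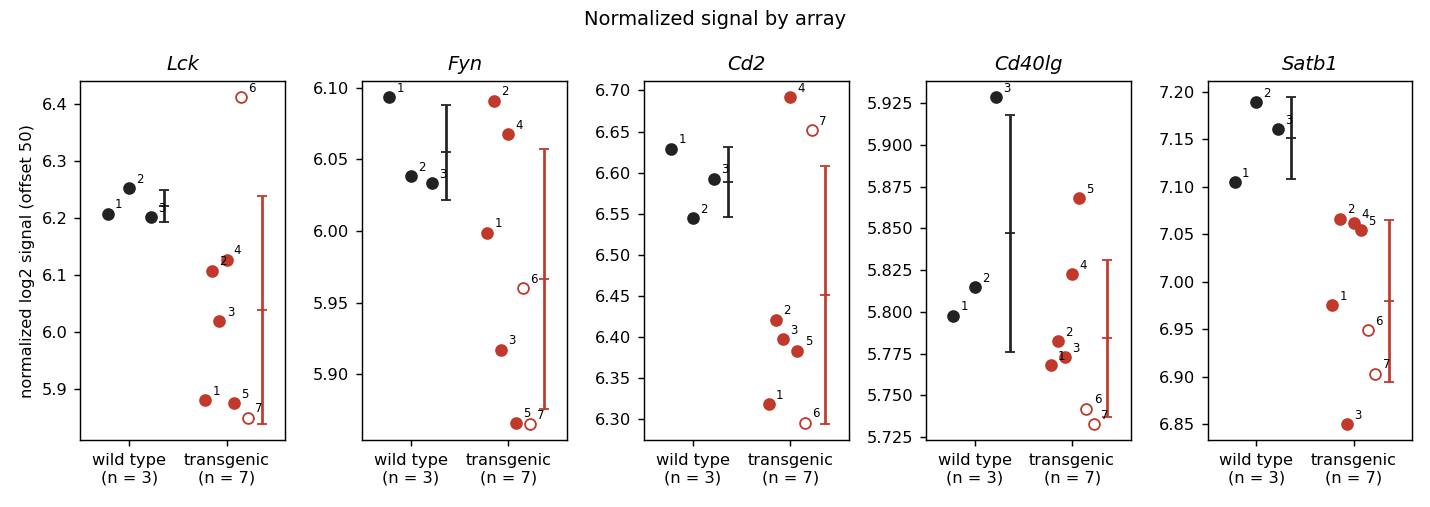
Normalized log2 signal (offset 50) of each gene by group; numbers are replicates, open circles are the second sitting, and the bar beside each group is its mean and SD. All 7 transgenic Satb1 values, 6.85 to 7.07, lie below the wild-type values, 7.10 to 7.19; the Lck value of transgenic replicate 6, 6.41, lies above all others.

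Satb1 had the smallest p of the 5. Its normalized signal was 7.10, 7.19 and 7.16 in the wild-type arrays, and in the transgenic arrays ran from 6.85 on replicate 3, over a median of 6.98, to 7.07 on replicate 2. The groups did not overlap, which was true in this direction of 1.17% of all genes (7 of 597) and in either direction of 1.68%. The difference was -0.17 (SE 0.051, 95% interval -0.29 to -0.06). By limma the unadjusted p was 0.00701, and the adjusted p was 0.562. Satb1 was the only 1 of the 5 with an unadjusted p under 0.05, which 4.86% of all genes reached as lower, 2.35% as higher and 7.2% in either direction. The exact permutation test, two-sided, found 3 of the 120 splits of the arrays as large (p = 0.025, with 0.00833 the smallest p possible). Within the first sitting the difference was -0.16 (limma unadjusted p = 0.0206, adjusted p = 0.514), and the groups again did not overlap. The unadjusted p depended on the processing. It was 0.000864 with no background correction, where the difference was -0.25, but 0.161 with local background subtracted, 0.164 with no offset, 0.0826 with median centring, 0.0507 with a trended robust prior and 0.268 with housekeeping centring, where the difference was -0.11. Under housekeeping centring the median difference of all genes was 0.065. The lowest limma adjusted p of Satb1 over all alternatives was 0.354, with array weights.

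Lck had a similar log2 difference with a far wider spread, but from a dimmer signal, on which the offset weighs more. The ratio of mean grey levels, transgenic over wild type, was 0.583 for Lck and 0.814 for Satb1. These grey levels are not normalized and include the 2 dim arrays of the second sitting, which lower both ratios. Over the first sitting the transgenic means were 19.6 for Lck and 91.5 for Satb1, against 28.7 and 97.2 in wild type. On normalized values with no offset the log2 differences were -0.82 and -0.28. The wild-type values were 6.21, 6.25 and 6.20. The transgenic values ran from 5.85 on replicate 7, over a median of 6.02, to 6.41 on replicate 6. The difference was -0.18 (SE 0.11, 95% interval -0.42 to 0.05; limma unadjusted p = 0.118, adjusted p = 0.819; exact permutation p = 0.175, n = 7 and 3). The groups overlapped through replicate 6 alone. The other 6 transgenic arrays, at 5.85 to 6.13, lay below all wild-type values. On replicate 6 the local background around the Lck spots was 87.3 grey levels, the highest of the 10 arrays, where the next highest was 65.5. Without replicate 6 the difference was -0.26 (limma unadjusted p = 0.00574, adjusted p = 0.532). The groups then did not overlap for Lck and Satb1, 2 of the 5 genes, against 1.84% of all genes lower in this way. Replicate 6 is singled out here by its own Lck value, so for Lck this was fixed beforehand. Satb1 did not overlap with replicate 6 included either. Within the first sitting the Lck difference was -0.24 with a 95% interval of -0.40 to -0.07 (limma unadjusted p = 0.0103, adjusted p = 0.505). The same 2 genes did not overlap there, against 2.18% of all genes. The first sitting also leaves replicate 6 out, so neither share is support for Lck. With no background correction the Lck difference was -0.0059. Local background at Lck ran from 28.7 to 41.3 grey levels in wild-type and from 34.1 to 87.3 in transgenic arrays. Its part in the Lck values was not tested.

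Fyn, the other Src family kinase, showed a smaller difference. The wild-type values were 6.09, 6.04 and 6.03. The transgenic values ran from 5.87 on replicate 7, over a median of 5.96, to 6.09 on replicate 2, so that 5 of the 7 lay below the wild-type mean and the groups overlapped. The difference was -0.09 (SE 0.053, 95% interval -0.21 to 0.03; limma unadjusted p = 0.127, adjusted p = 0.819; exact permutation p = 0.15, n = 7 and 3). Within the first sitting it was -0.08.

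Cd2 varied widely within the transgenic group. The wild-type values were 6.63, 6.54 and 6.59. Transgenic replicates 4 and 7 read 6.69 and 6.65, above all wild-type arrays, and the other 5 read 6.30 to 6.42, below all of them. Replicate 4 belongs to the first sitting and replicate 7 to the second. The difference was -0.14 (SE 0.086, 95% interval -0.33 to 0.05; limma unadjusted p = 0.139, adjusted p = 0.854; exact permutation p = 0.167, n = 7 and 3). Within the first sitting it was -0.15 (adjusted p = 0.702). With housekeeping centring the Cd2 difference was -0.017 (limma unadjusted p = 0.886), where the median of all genes was 0.065. With 1 background value per array it was -0.34 (limma unadjusted p = 0.0111, adjusted p = 0.658).

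Cd40lg was near the floor of the measurement. The wild-type values were 5.80, 5.81 and 5.93, and the transgenic values ran from 5.73 on replicate 7, over a median of 5.77, to 5.87 on replicate 5. The groups overlapped, with 6 of the 7 transgenic arrays below the wild-type mean. The difference was -0.06 (SE 0.040, 95% interval -0.15 to 0.02; limma unadjusted p = 0.141, adjusted p = 0.854; exact permutation p = 0.117, n = 7 and 3). Its sign turned, to 0.013, with arrays centred on the housekeeping genes, where the median of all genes was 0.065. It was 0.017 with spots of code 2 left out. That step removed only transgenic spots of Cd40lg, among them all of replicates 6 and 7, since 6 of 6 wild-type spots carried the code 0. Without wild-type replicate 3 the difference was -0.02. In the other direction, it was -0.80 with local background subtracted (limma unadjusted p = 0.0264, adjusted p = 0.717) and -0.65 with no offset (unadjusted p = 0.0434, adjusted p = 0.809). Within the first sitting the Cd40lg difference was -0.05 with a 95% interval of -0.16 to 0.06 (limma unadjusted p = 0.309, adjusted p = 0.920). Local background at Cd40lg ran from 26.2 to 30.7 grey levels in wild-type and from 30.1 to 46.5 in transgenic arrays, where replicate 5 alone lay within the wild-type range, and had r = -0.64 with the normalized signal over the 10 arrays. Its part in the Cd40lg values was not tested.

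**Figure D3:**
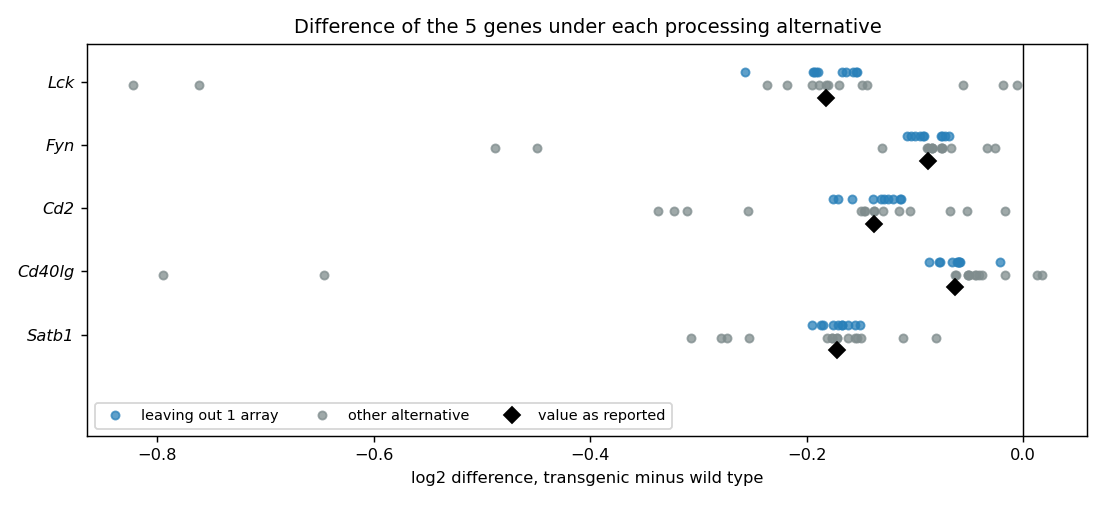
Log2 difference, transgenic minus wild type, of each gene as reported (black), leaving out 1 array (blue) and under the other processing alternatives (grey). Satb1 stays between -0.31 and -0.08. Cd40lg crosses 0 to reach 0.017 with spots of code 2 left out, which removed only transgenic spots of this gene. The most negative Lck, Fyn and Cd40lg values come from settings without an offset.

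Genes that work beside these 5 were set against them from 4 lists. Of 37 genes of T cell receptor signalling and T cell markers, 11 were measured, 5 higher and 6 lower in transgenic arrays, with a median of -0.0037 and 0 passing. The smallest p belonged to Cbl, a ubiquitin ligase that restrains receptor signalling, at -0.11 (limma unadjusted p = 0.0634), then to Prkcq, the protein kinase C theta gene of T cells, at -0.14, and Csk, the kinase that holds Src family kinases inactive, at 0.07. The T cell receptor chain gene Cd3d was at -0.05 (SE 0.049), the co-receptor gene Cd4 at 0.07 (SE 0.076), the costimulatory receptor gene Cd27 at -0.0037 (SE 0.063) and the interleukin 7 receptor gene Il7r at -0.08 (SE 0.081). The mean of these 4 markers ran from 6.09 to 6.21 in wild-type and from 6.02 to 6.25 in transgenic arrays, so the groups overlapped. Their summed signal ran from 85.4 to 108.6 grey levels in wild-type and from 28.4 to 148.7 in transgenic arrays. Of 13 Src family kinases and regulators, 7 were measured, 3 higher and 4 lower, with a median of -0.02. Besides Cbl and Csk, the smallest p was that of the phosphatase gene Ptpn11, at 0.05 (unadjusted p = 0.207).

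The ligand's receptor was measured too. Cd40, the receptor that CD40 ligand engages, was lower in all 7 transgenic arrays than the wild-type mean, at -0.13 with a standard error of 0.047 (limma unadjusted p = 0.0204, adjusted p = 0.562). Of 24 genes of CD40 and costimulation, 12 were measured, 4 higher and 8 lower, with a median of -0.02 and 0 passing. The integrin gene Itgal stood at -0.11 and the death ligand gene Fasl at 0.07. Of 18 T cell transcription factors, 5 were measured, 3 higher and 2 lower, with a median of 0.01 and 0 passing. Ikzf1, which encodes the lymphoid factor Ikaros, was -0.13 (SE 0.046, limma unadjusted p = 0.0143, adjusted p = 0.562), while Gata3, needed for helper T cells, stood at 0.06 and Stat6, which acts downstream of interleukin 4, at 0.04. Myeloid markers had 4 of 6 measured genes higher and a median of 0.07, with Csf2ra at 0.12 (unadjusted p = 0.0318) and Fes at -0.11 (unadjusted p = 0.0478), erythroid markers 2 of 3 higher and a median of 0.15, and the only NK marker, Gzmb, stood at -0.02 and was above background on 4 of 10 arrays. No platelet marker was on the membrane. The summed myeloid signal ran from 254.5 to 322.1 grey levels in wild-type and from 157.4 to 416.6 in transgenic arrays, and the erythroid signal from 68.7 to 130.1 and from 16.3 to 235.9. The part of these markers in the results was not tested.

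**Figure D4:**
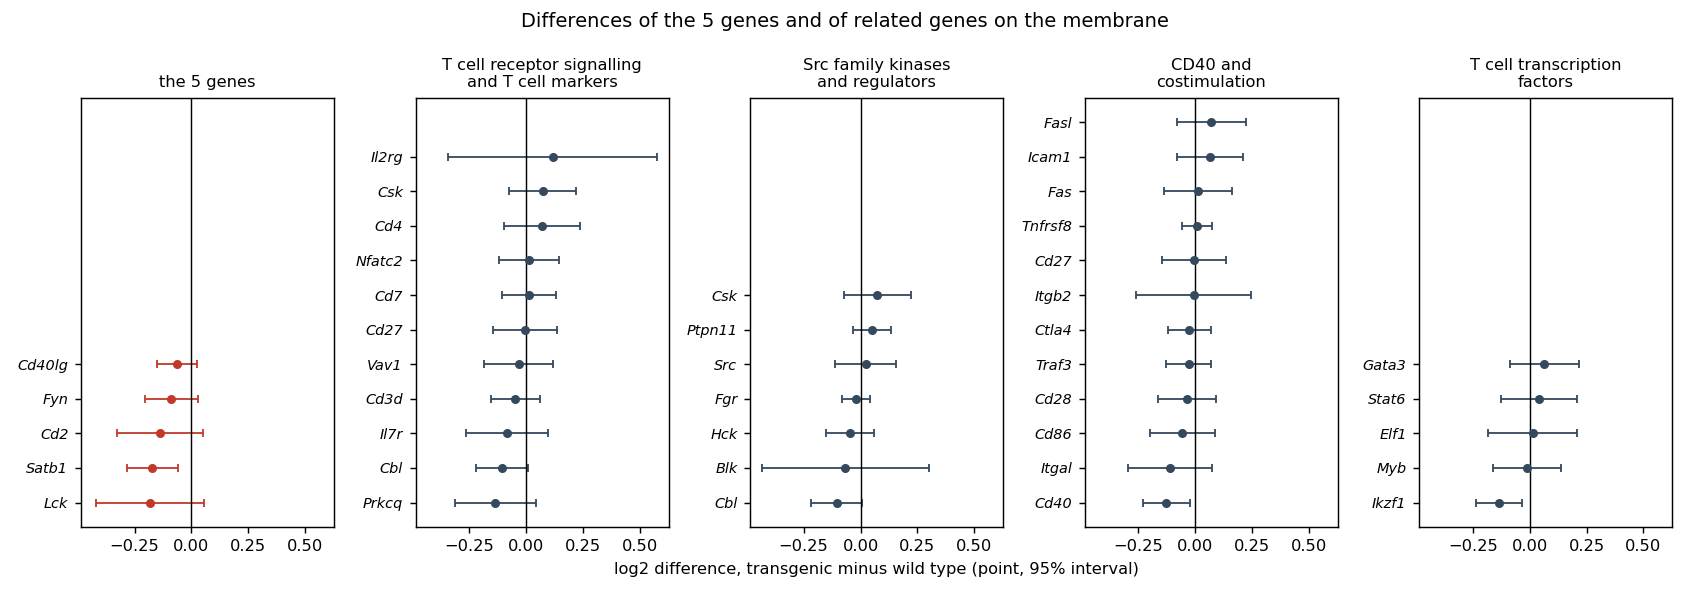
Log2 differences, transgenic minus wild type, with 95% intervals from limma for the 5 genes and for the measured members of 4 related lists. The intervals of Satb1, Cd40 and Ikzf1 lie below 0 before adjustment; all other intervals shown include 0.

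Covariation was read from the 10 arrays, where all 10 pairs of the 5 genes had a positive Pearson r of normalized log2 signal. Their median was 0.34, against 0.0041 over the 63546 pairs of the 357 genes above background on all arrays. The middle 90% of those pairs ran from -0.59 to 0.60. Lck, above background on 9 arrays, and Cd40lg, on 8, are not among the 357 genes, so their pairs have no like reference here. All 5 genes had the lower mean in transgenic arrays, and r holds that shared shift: with group means subtracted, 7 of the 10 pairs were positive and 3 negative, and their median was 0.074, against 0.0044 over all pairs. No pair passed: a permutation test with 100000 resamples, adjusted over the 10 pairs, called 0, and 1 pair had an unadjusted p under 0.05 by Pearson. That pair was Cd40lg and Satb1, with r = 0.69 (permutation p = 0.0261, adjusted p = 0.253) and Spearman rho = 0.70 (p = 0.0321, adjusted p = 0.161). Leaving out the 2 arrays farthest from the median of Cd40lg gave r = 0.76, and the 2 farthest in Satb1 r = 0.65. Within the first sitting it was 0.57 (n = 8, permutation p = 0.141). The r of this pair also depended on the processing. It was 0.30 with spots of code 2 left out, -0.23 with median centring and -0.086 with housekeeping centring. Fyn and Satb1 had r = 0.64 (permutation p = 0.0506, adjusted p = 0.253) and rho = 0.72 (p = 0.0236, adjusted p = 0.161). It was 0.76 without the 2 arrays farthest in Fyn but 0.38 without the 2 farthest in Satb1, so it rests in part on those arrays, and it was 0.51 within the first sitting.

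The pairs of Lck with Fyn and Cd2 depended on a few arrays. Lck and Fyn had r = 0.55 (permutation p = 0.103, adjusted p = 0.342) and rho = 0.58 (p = 0.0884). This r was 0.72 without the 2 arrays farthest in Lck and 0.089 without the 2 farthest in Fyn, so it rests on those arrays, while leaving out any 1 array gave 0.42 to 0.80. Lck and Cd2 had r = 0.03 (permutation p = 0.934) and rho = -0.04 (p = 0.917). Transgenic replicate 6 was the highest array for Lck and the lowest for Cd2, and without the 2 arrays farthest in Lck, transgenic 6 and 7, r was 0.79. Within the first sitting, Lck and Cd2 reached r = 0.79 (n = 8, permutation p = 0.0235) and Lck and Fyn r = 0.73 (permutation p = 0.0429); the smallest adjusted p of the Lck and Cd2 pair over all alternatives was 0.214. With group means subtracted over the 10 arrays, r was -0.24 for Lck and Cd2, -0.21 for Lck and Cd40lg, -0.068 for Fyn and Cd40lg, 0.41 for Lck and Fyn, 0.47 for Fyn and Satb1 and 0.54 for Cd40lg and Satb1, and the other 4 pairs lay between 0.039 and 0.098. Lck and Satb1 had r = 0.40, Cd2 and Satb1 0.38, Fyn and Cd2 0.30, Cd2 and Cd40lg 0.26, Fyn and Cd40lg 0.20 and Lck and Cd40lg 0.08, each with an adjusted p above that of Lck and Fyn.

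**Figure D5:**
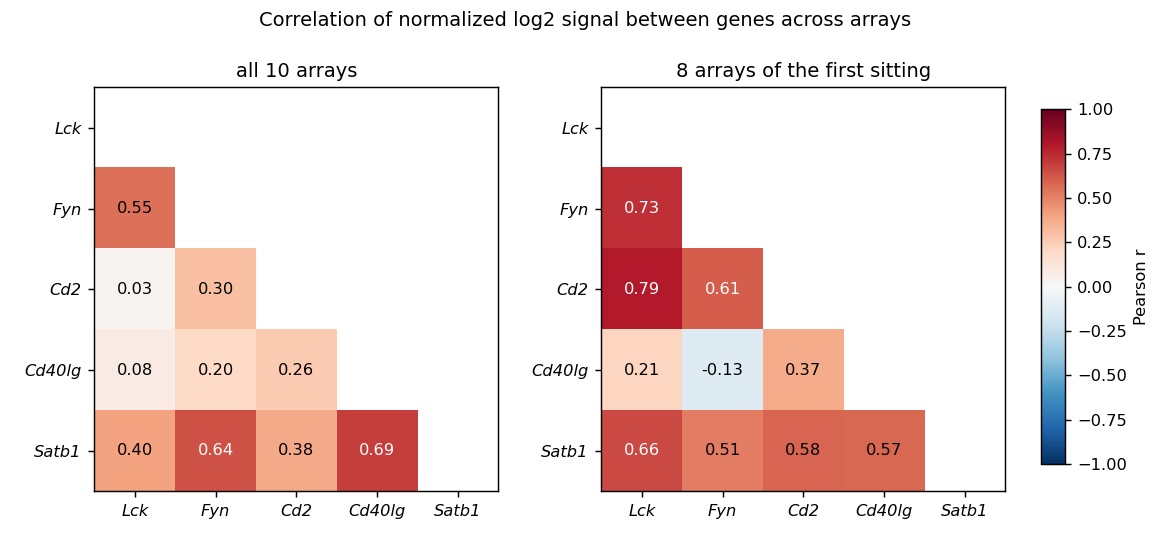
Pearson r of normalized log2 signal between each pair of the 5 genes, over all 10 arrays (left) and within the first sitting, 8 arrays on their own normalization (right). Lck and Cd2 stand at 0.03 on the left and at 0.79 on the right, and no pair passed after adjustment.

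The genes whose signal followed each of the 5 most closely over the 10 arrays were taken from those above background on all arrays, as a description without a test. Arrays share group, sitting and background, so r with the group means subtracted is given as well. For Satb1 they were Apc (r = 0.90, 0.75 with group means subtracted), the spots printed as casein kinase II alpha 1 related sequence 4 (0.84, 0.70) and Ttf1 (0.83, 0.77), the last with local background above 100 grey levels on 9 arrays. For Fyn they were Apc (0.79, 0.74), the spots printed as the Cek 5 receptor protein tyrosine kinase ligand (0.74, 0.65) and Fli1 (0.74, 0.70). Apc headed the list of both genes. For Lck they were Cbl (0.78, 0.70), Ctsl (0.76, 0.71) and Tgfb1 (0.76, 0.69), the last with local background above 100 grey levels on 3 arrays. The first Cbl spot lies 1 row from the first Lck spot, in the same column. Transgenic replicate 6 was the highest array in normalized signal and in local background for both genes. For Cd2 they were Cdh2 (0.87, 0.94), the spots printed as I-kappa B alpha subunit (0.85, 0.93) and Pou2af1 (0.81, 0.78). For Cd40lg they were Erbb3 (0.83, 0.79), Pax5 (0.80, 0.81) and Cdx2 (0.77, 0.67), and Pax5 had local background above 100 grey levels on all 10 arrays.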

How the data were processed

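The authors deposited an intensity for every spot and for the area around it, in grey levels that, per the file headers, were read by automatic segmentation of an inverted image; no normalization is recorded. What the spot codes 0 and 2 mean is not stated. A second deposited table of the authors holds values read here as log2, judged by their range (array medians -2.71 to -1.18); its scaling, centring and floor are unknown and its rows carry no gene names, so it served only for counts of genes. Background was corrected with normexp and an offset of 50 grey levels, the named spots were quantile normalized, and each gene's 2 spots were averaged as log2. The 126 unnamed spots entered only the background fit. limma 3.58.1 in R 4.3.3 (lmFit, eBayes, two-sided) was fitted on all 597 genes, p-values were adjusted by Benjamini-Hochberg and called under 0.05; figures used Python 3.11.15 and matplotlib 3.10.9. The steps were tested on simulated data. Sittings are header clock times more than 1 hour apart, read without a date. Gene names of the membrane were matched by hand to current symbols for the genes named here. PLC gamma was left out, since its printed name does not say which gene it is.

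The 5 genes, the lists and the naming rule were chosen with earlier results of these data known. The rule took the 5 genes, Cd22, the 3 most alike genes of each by Pearson r, and from each related list the members at an unadjusted p under 0.05, filled up to 3; the other T cell markers and list members named were added after their values were seen. The number of arrays limits the precision.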

Additional observations from a re-analysis of the deposited data

Results flagged for a closer look

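Among 33 values searched in the transgenic group for 1 array far from the other 6, where chance finds about 1 in 20 (1.65), 1 was found. Ctsl, one of the genes most like Lck, reached 5.97 (normalized log2 signal) on transgenic replicate 6, while the remaining transgenic arrays lay at 5.84 to 5.89. Ctsl entered the search because it followed Lck over these same arrays, and Lck was highest on transgenic replicate 6. The number given for chance therefore does not hold for this value. Groups of 3 arrays are too small for this search.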

How the results depend on the processing

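Over all genes 0 passed under each of 27 alternatives, with 24 to 53 genes at an unadjusted p under 0.05 by limma and 29 by the exact test; with the authors' processed values the median of all rows was -0.17. Satb1, Lck, Fyn and Cd2 kept a negative sign under every alternative run, in sizes from -0.31 to -0.081, -0.82 to -0.0059, -0.49 to -0.026 and -0.34 to -0.017, and none of the 5 passed. Housekeeping centring gave Cd2 -0.017 and Fyn -0.033, where the median of all genes was 0.065. No background correction gave Cd2 -0.25 (unadjusted p = 0.0083 by limma). Cd40lg turned to 0.013 with arrays centred on the housekeeping genes and 0.017 without spots of code 2, a step that removed only transgenic spots of this gene. Leaving out 1 array, Satb1 ran from -0.20 to -0.15, Lck from -0.26 to -0.15, Cd2 from -0.18 to -0.11, Fyn from -0.11 to -0.07 and Cd40lg from -0.09 to -0.02. With no offset Lck was -0.82, Cd40lg -0.65, Fyn -0.49, Cd2 -0.32 and Satb1 -0.28. With 1 background value per array Lck was -0.02. No pair of genes passed under any of 26 alternatives, but signs of r turned. With no background correction r was -0.39 for Lck and Fyn, -0.34 for Lck and Cd2, -0.030 for Lck and Satb1 and -0.18 for Fyn and Cd40lg. With 1 background value per array these were -0.33, -0.33, -0.0066 and -0.083, and Lck and Cd40lg -0.061. Median centring gave -0.32 for Fyn and Cd40lg, -0.30 for Cd2 and Cd40lg and -0.23 for Cd40lg and Satb1. Housekeeping centring gave -0.086 for Cd40lg and Satb1. Fyn and Cd40lg was -0.00038 with cyclic loess, -0.24 without spots of code 2, -0.13 in the first sitting, -0.12 with sitting means and -0.068 with group means subtracted. Lck and Cd40lg was -0.15 without spots of code 2, -0.21 with group means subtracted and -0.24 in transgenic arrays only. Lck and Cd2 was -0.0062 without spots of local background above 100 grey levels, -0.24 with group means subtracted, -0.23 in transgenic arrays only and -0.042 by Spearman. Leaving out 1 array, r ran from -0.17 to 0.44 for Lck and Cd2, from -0.13 to 0.41 for Lck and Cd40lg and from -0.015 to 0.50 for Fyn and Cd40lg. The cause of these turns was not tested. With only genes above background on all arrays, Lck and Cd40lg had no value. No paired analysis was possible because the transgenic labels carry no replicate numbers shared with the wild-type ones.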
